A study of Mus musculus with 50 samples.

Results

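The genes described are 10 interferon-inducible genes of the mouse: the chemokines Cxcl9 and Cxcl10, the guanylate-binding proteins Gbp2, Gbp3, Gbp5 and Gbp7, and the immunity-related GTPases Irgm1, Irgm2, Igtp and Iigp1. They were listed by name as targets of interferon-gamma, and all 10 were among the 21954 genes of each deposited table. Each was followed in bone marrow-derived macrophages in the M0, M1 and M2 states and in digit wound beds after amputation.

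Interferon-gamma is made mainly by T cells and natural killer (NK) cells and acts on a receptor that activates JAK kinases, and many genes that respond to it hold GAS elements in their promoters. Interferons of either type also act through factors that bind ISRE elements, among them IRF1 and IRF9. CXCL9 and CXCL10 attract T and NK cells that carry the receptor CXCR3, whereas the guanylate-binding proteins (GBPs) and immunity-related GTPases (IRGs) gather on the vacuoles of intracellular microbes and disrupt them. Irgm1, Irgm2 and Igtp (Irgm3) are the regulatory IRGs that keep effector IRGs such as Iigp1 (Irga6) off the membranes of the cell itself.

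The macrophages were grown from bone marrow of female C57BL/6 mice aged 6 to 8 weeks in medium with L929-conditioned supernatant for 7 days. From these, M1 cultures received 20 ng/ml interferon-gamma and 100 ng/ml lipopolysaccharide (LPS), and M2 cultures received 20 ng/ml interleukin 4 (IL-4), while M0 cultures received basal medium alone. RNA was taken 24 h later, by the study's methods, and each state had 3 libraries. The M1 and M2 labels read 24h, whereas the M0 labels read Baseline and carry no time. If M0 RNA was taken before the treatment, the agents and 24 h of further culture cannot be told apart in differences from M0. The labels do not say whether the 3 libraries of a state were separate animals or cultures, so p-values measure the spread between these samples, which may be technical. Because M1 cells had both agents, the parts of interferon-gamma and LPS cannot be told apart.

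The digits came from male C57Bl/6 mice aged 9 to 10 weeks in which the terminal phalanx of hindlimb digit 3 was amputated on both sides, and the tissue around the wound bed was taken as a mixture of cell types. The 29 non-regenerative (NR) digits were labelled with amputation levels of 60 to 80%, of which 17 were above 67%. They were sampled at 0, 3, 6, 12 and 24 h and at 3, 7, 14 and 21 d, with 3 digits per time point and 5 at 7 d. The 12 intermediate (INT) digits were labelled with levels of 41 to 55% and were sampled at 0 h, 24 h, 14 d and 21 d, with 3 digits each. Regenerative digits were not analysed here.

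The promoters are shown first because the members moved together in the macrophages. In the RefSeq promoter windows (GRCm38.p6, 250 bases before to 50 after the annotated start), 9 of the 10 members had an entry, Gbp3 with 2 starts. Iigp1 had none. Both strands were searched for 3 motifs: the ISRE core GAAANNGAAA, the GAS element TTCNNNGAA, and TTCNNNNGAA, the wider spacing that STAT6 can bind. The first motif was found in 8 of the 9 members with an entry and in 3.99% of all 27025 genes with an entry (3.44% of all 32851 windows). GAS was found in 4 of the 9 members (Gbp5, Gbp7, Igtp and Irgm2) and in 9.55% of genes (8.3% of windows). The wider spacing was found in 1 member, at the second start of Gbp3, and in 8.01% of genes (6.95% of windows).

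The stretches around the ISRE core are printed 5′ to 3′ on the strand of the gene, with the core in capitals. A core that lies on the opposite strand starts with TTTC here. Runs are kept to 30 bases where the surrounding sequence overlaps an annotated exon.
Cxcl10, chr5:92349068-92349127, minus strand: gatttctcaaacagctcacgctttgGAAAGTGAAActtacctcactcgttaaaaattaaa
Gbp2, chr3:142620594-142620623, plus strand: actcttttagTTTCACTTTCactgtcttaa
Gbp3, chr3:142559992-142560021, plus strand: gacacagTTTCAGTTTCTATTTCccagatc
Gbp5, chr3:142496744-142496803, plus strand: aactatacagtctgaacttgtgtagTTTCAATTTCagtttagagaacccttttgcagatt
Gbp7, chr3:142530258-142530317, plus strand: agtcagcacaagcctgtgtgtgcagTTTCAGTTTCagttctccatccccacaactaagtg
Irgm1, chr11:48871428-48871457, minus strand: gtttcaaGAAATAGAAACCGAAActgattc
Irgm2, chr11:58214888-58214947, plus strand: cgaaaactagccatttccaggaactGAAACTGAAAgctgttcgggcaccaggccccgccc
Igtp, chr11:58199497-58199555, plus strand: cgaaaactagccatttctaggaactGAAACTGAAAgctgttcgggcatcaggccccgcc

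Gbp3 and Irgm1 each held 2 overlapping cores. In 6 of the 8 members the core nearest the start began within 64 bases before it, whereas in Gbp5 it began 165 bases and in Cxcl10 213 bases before the start. Cxcl9, the member with the largest change in macrophages, had no match to any of the 3 motifs in its window. The stretches of Igtp and Irgm2 are nearly the same, and their whole windows were identical at 247 of 264 aligned bases (93.6%). By the GENCODE M21 annotation of GRCm38, the Cxcl10 stretch lies in an intron of Art3, a gene on the other strand. The Gbp5 stretch lies in an intron of Gbp5 and the Irgm2 stretch in an intron of Irgm2, whereas those of Gbp2 and Irgm1 overlap an annotated exon of these genes. A match describes letters in a window and does not show that a factor binds there.

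**Figure D1:**
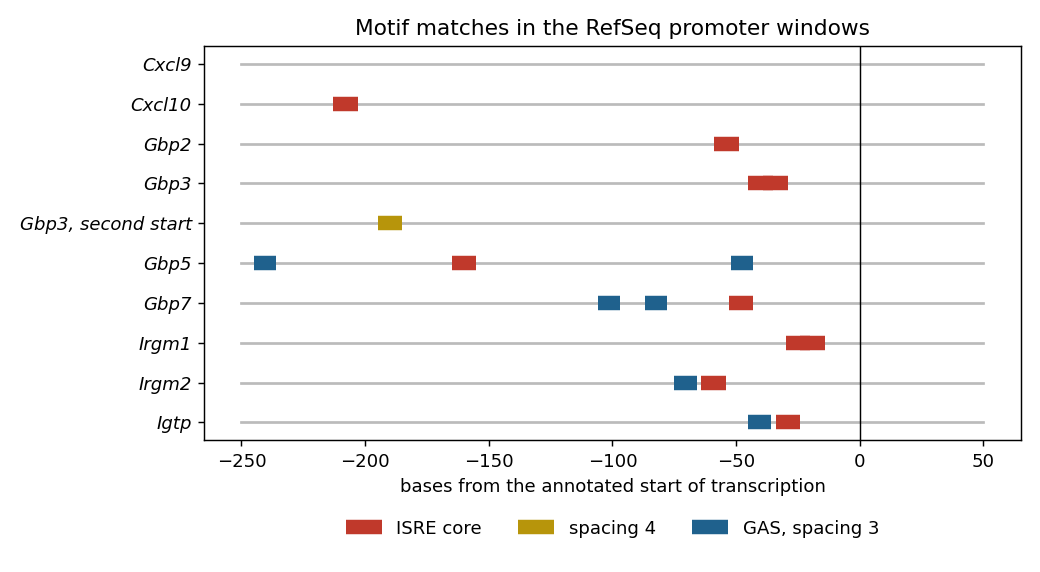
Position of each motif match in the RefSeq promoter windows of the 9 members with an entry, in bases from the annotated start (x axis). Red boxes mark the ISRE core (8 members), blue boxes the GAS element (4 members) and the ochre box the wider spacing (second start of Gbp3); the Cxcl9 window is empty.

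Macrophage libraries held 15683424 to 27904773 counts and digit libraries 1468749 to 13011782, the lowest being NR 3 h replicate 3. Levels are given as normalized TPM, which are per transcript length and were scaled across samples by the authors within each table, so macrophage and digit levels are not on 1 scale. In the macrophages the keratinocyte genes Dsg3, Krt1 and Krt5 were at 0 in all 9 libraries, while the fibroblast collagens Col1a2 and Col1a1 had mean levels of 366 and 315. The neutrophil gene Retnlg was at 0 in M1, as were Krt14, Trp63 and the bone genes Bglap and Dmp1; Krt14 was also at 0 in M0. NR 14 d replicate 2 stood apart from all other digits: its normalized TPM summed to 3362791, its summed members were 5.08, the lowest of 41 digits, and its macrophage genes summed to 2797, the highest. NR 7 d replicate 2 also stood apart, with 10096 genes above 0, the fewest of 41 digits, and a normalized TPM sum of 1434851; it was the highest digit for Gbp5 and Igtp, while Irgm1, Irgm2 and Iigp1 were listed at 0 in it.

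Igtp and Irgm2 overlap on the same strand of chromosome 11 (58199556 to 58207591 and 58199618 to 58222782), and the GBPs and IRGs are families of similar genes. The counts were fractional because RSEM shares out reads that match several genes, so the values of these members relative to each other are uncertain. The 4 GBPs lie in 1 region of chromosome 3, and Cxcl9 (92321347 to 92328079) and Cxcl10 (92346638 to 92348889) lie close together on chromosome 5.

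All 10 members were higher in M1 than in M0, and for every member the lowest M1 library was far above the highest M0 library. In this comparison 46.1% of the 12939 genes tested were called in either direction and 20.1% were called higher, where called means an adjusted p below 0.05 by edgeR's quasi-likelihood test and a more than 2-fold difference of the mean normalized count. How many of all genes were separated in the same way was not counted, and 11164 of the 12939 had an unadjusted p below 0.05 by this test. The median log2 difference was 5.54 over the members and -0.09 over all genes tested.

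The CXCR3 ligands had the largest differences. Cxcl9 was at 3.21, 4 and 3.99 in the M0 libraries and at 3015, 3594 and 3128 in the M1 libraries, a log2 difference of 9.59 ± 0.09 (SE, adjusted p = 4.83e-15). Cxcl10 was at 26.4, 37.3 and 44.5 in M0 and at 8484, 8723 and 7900 in M1, a log2 difference of 7.85 ± 0.16 (adjusted p = 4.32e-13). Cxcl9 was thus the lowest member in M0 and the third highest in M1, and Cxcl10 was the highest in M1, with 35.7% of the members' summed level.

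Among the GBPs, Gbp2 and Gbp5 differed most. Gbp2 was at 66.2, 66.7 and 63.7 in M0 and at 4330, 4524 and 4457 in M1, a log2 difference of 6.09 ± 0.06 (adjusted p = 4.83e-15). Gbp5, which is known for promoting inflammasome assembly, was at 31.2, 31.4 and 33.4 in M0 and at 1493, 1634 and 1489 in M1, a log2 difference of 5.62 ± 0.06 (adjusted p = 1.02e-14). The difference was 4.70 ± 0.06 for Gbp3 and 2.86 ± 0.05 for Gbp7, which was the smallest of the 10. Gbp3 went from 30.7, 35.5 and 33.9 in M0 to 852, 890 and 858 in M1. Gbp7 went from 51.6 to 52.1 in M0 to 371 to 381 in M1.

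The effector IRG Iigp1 was at 25.3, 31.4 and 25.3 in M0 and at 1699, 1935 and 1832 in M1, a log2 difference of 6.05 ± 0.10 (adjusted p = 9.77e-14). The regulatory IRGs differed less in log2: 5.45 ± 0.09 for Igtp, 3.79 ± 0.08 for Irgm2 and 3.52 ± 0.09 for Irgm1. Igtp was at 25, 31.7 and 30.1 in M0 and at 1276, 1262 and 1259 in M1, and Irgm2 was at 603, 632 and 611 in M1. Irgm1 was the highest member in M0 (69.1, 89.4 and 82) and the seventh in M1 (884, 941 and 918).

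By level per transcript length, the M0 libraries of Irgm1, Gbp2, Gbp7 and Irgm2 followed in this order without overlap between neighbours. The ranges of Irgm2, Cxcl10, Gbp3, Gbp5, Igtp and Iigp1 each overlapped the next, from a mean of 44.8 to 27.4. In M1 the order was Cxcl10, Gbp2, Cxcl9, Iigp1, Gbp5, Igtp, Irgm1, Gbp3, Irgm2 and Gbp7, and only Irgm1 (914) and Gbp3 (867) had overlapping ranges among neighbours.

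**Figure D2:**
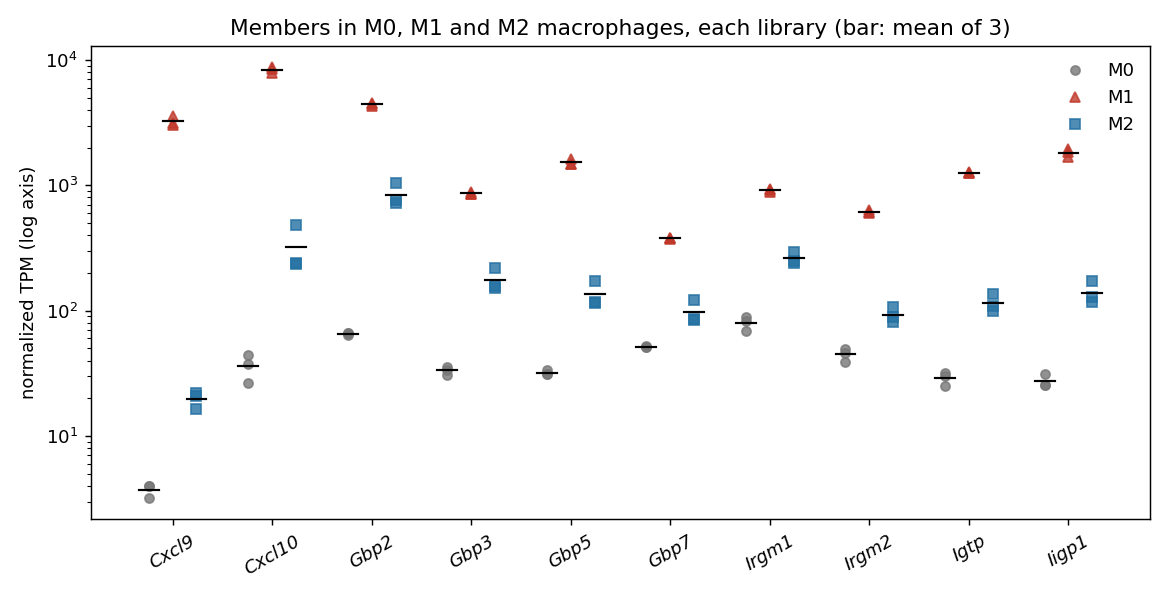
Normalized TPM (log axis) of each member in each macrophage library, with M0 as grey circles, M1 as red triangles and M2 as blue squares; bars are means of 3 libraries. M1 lies above M2 and M2 above M0 for every member, from 3.21 (Cxcl9, M0) to 8723 (Cxcl10, M1).

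With IL-4 (M2), 8 of the 10 members were called higher than in M0, and the differences were smaller than with interferon-gamma and LPS. Here 22.3% of the 12976 genes tested were called and 11% were called higher. The median log2 difference was 2.14 over the members and -0.004 over all genes tested. The M0 libraries are the same as in the M1 comparison, so M1 and M2 were also compared directly.

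Gbp2 had the largest difference with IL-4, at 1043, 729 and 763 in the M2 libraries, 3.63 ± 0.12 in log2 above M0 (adjusted p = 1.012e-09). Cxcl10 was at 481, 238 and 242, a log2 difference of 3.06 ± 0.28 (adjusted p = 2.03e-06). Cxcl9 reached 22, 16.3 and 20.9, a log2 difference of 2.27 ± 0.12 (adjusted p = 1.85e-08). The other called members differed by 2.31 (Gbp3), 2.28 (Iigp1), 2.006 (Gbp5), 1.93 (Igtp) and 1.65 (Irgm1). In the M2 libraries Gbp3 was at 220, 151 and 157, Iigp1 at 172, 118 and 129 and Irgm1 at 294, 240 and 249.6. For each of these 8 members the lowest M2 library was above the highest M0 library. Over all genes such separation was not counted, and 9945 of the 12976 tested had an unadjusted p below 0.05 by edgeR.

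Irgm2 (107, 80.8 and 88.8 in M2 against 39.1, 49.1 and 46.3 in M0) and Gbp7 (121, 85.6 and 84.6 against 51.6, 51.6 and 52.1) had log2 differences of 0.98 ± 0.10 and 0.82 ± 0.12. Both had adjusted p below 0.05 (7.58e-06 and 8.30e-05) and a difference of not more than 2-fold in the mean normalized count (in mean level, M2 was at 2.06 times M0 for Irgm2 and 1.87 times for Gbp7), and the M2 and M0 libraries did not overlap for either. Irgm2 passed the fold threshold without M0 replicate 2 (1.05), M0 replicate 3 (1.005), M2 replicate 2 (1.067) or M2 replicate 3 (1.016).

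M2 replicate 1 was the highest M2 library for 10 of 10 members. It stood at 2.005 times the mean of the other M2 libraries for Cxcl10 and at 1.19 times for Cxcl9. The same library was the highest for 12 of 12 other interferon-inducible GTPases and 10 of 10 type I interferon-stimulated genes measured, against 36.7% of the 11814 genes with a mean level of at least 1. So it was for 10 of 10 genes of class II control and the immunoproteasome, 8 of 10 macrophage genes and 8 of 12 interferon-gamma signalling genes. For T and NK cell genes it was 2 of 12 and for neutrophil genes 1 of 8. Without M2 replicate 1, 8 members were still called, with log2 differences of 2.65 for Cxcl10 and 3.44 for Gbp2.

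All 10 members were higher in M1 than in M2, in a comparison in which 48% of the 12934 genes tested were called and 20.1% were called higher. The log2 difference was 7.23 ± 0.10 for Cxcl9, 4.69 ± 0.22 for Cxcl10, 3.67 ± 0.12 for Iigp1, 3.52 ± 0.13 for Gbp5 and 3.43 ± 0.09 for Igtp. It was between 1.78 and 2.72 for Irgm1, Gbp7, Gbp3, Gbp2 and Irgm2, and its median over the members was 3.07 against -0.08 over all genes tested. In level, M2 held 0.608% of the M1 mean for Cxcl9 and 3.83% for Cxcl10. It held 19.1% for Gbp2, 25.7% for Gbp7 and 28.6% for Irgm1, so the order of the members differed between the states: Gbp2 was the highest in M2 (mean 845) and Cxcl9 the lowest (19.7), neither overlapping its neighbour, while the ranges of most members between them overlapped.

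**Figure D3:**
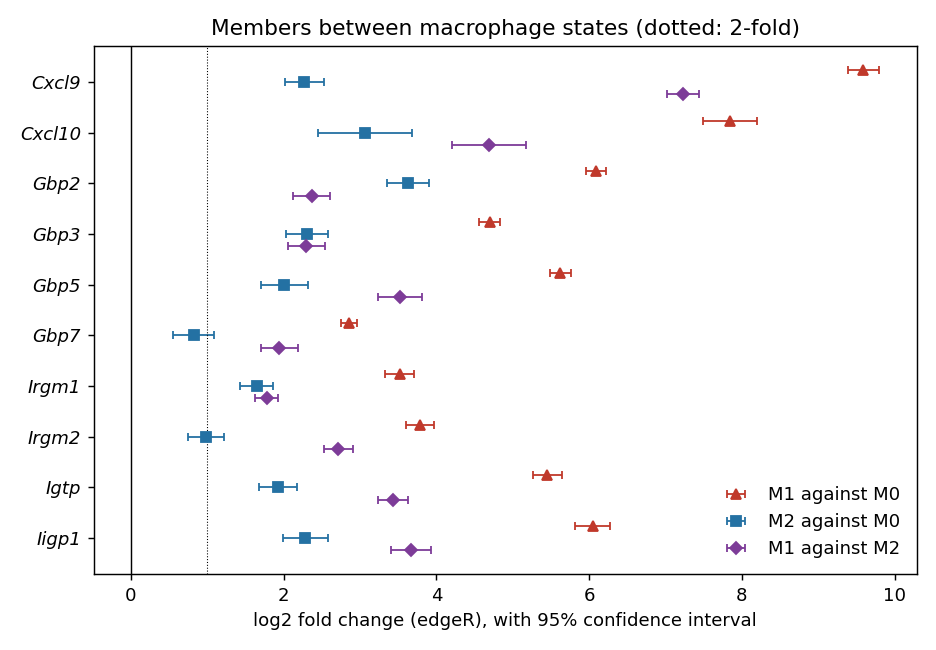
Log2 fold change by edgeR of each member (x axis) with its 95% confidence interval, for M1 against M0 (red triangles), M2 against M0 (blue squares) and M1 against M2 (purple diamonds); the dotted line is 2-fold. M1 against M0 runs from 2.86 (Gbp7) to 9.59 (Cxcl9), and M2 against M0 from 0.82 (Gbp7) to 3.63 (Gbp2).

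Of the 12 genes listed for interferon-gamma signalling, 9 were called higher and 1 lower in M1 than in M0, and in M2 5 of the 11 tested passed as higher and 1 as lower. The transcription factor gene Irf1 (3.30 in log2 in M1 and 1.44 in M2), the kinase Jak2 (2.91 and 2.05), the phosphatase Ptpn2 (1.87 and 1.104) and the feedback inhibitor Socs1 (6.30 and 4.71) were called higher in both. Socs3 was higher in M1 (5.96) and at 0.28 in M2, where it was not called, and Irf9 was higher in M1 (1.61) and at 0.17 in M2, not called. The receptor chain Ifngr1 was lower in both (-1.67 and -1.17), and Ifngr2 was higher in M1 (1.05) and at 0.56 in M2, not called. Jak1 (0.21 and -0.38) and Irf8 (0.08 and -0.78) were not called in either. Ifng had 0 to 1 counts in M0, 15 to 32 in M1 and 1 to 15 in M2; it was called higher in M1 against M0 and in M1 against M2 (2.02), and was not tested in M2 against M0.

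Of the CXCR3 axis, the receptor gene Cxcr3 was lower in M1 (log2 -2.09) and in M2 (-4.28) than in M0, at a mean level of 7.61 in M0 and 1.77 in M1. Dpp4, a peptidase that trims these chemokines, was higher in M1 (1.23) and lower in M2 (-1.96). Cxcl11 was not analysed here.

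Other interferon-inducible genes moved with the members. All 12 other interferon-inducible GTPases tested were called higher in M1 and 10 in M2, among them Tgtp2 (6.31 and 2.49), Gbp4 (8.44 and 2.31) and Gvin1 (3.64 and 1.89). All 10 type I interferon-stimulated genes tested were called higher in M1 and 9 in M2, among them Rsad2 (7.75 and 3.31), Ifit2 (5.96 and 3.16) and Isg15 (6.64 and 3.99). As background, many genes of both lists respond to interferons of either type.

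In the digits the members were low, and edgeR called no member in any comparison of time points or groups. The median over 41 digits was 4.34 for Irgm1, 4.01 for Gbp2 and 3.88 for Gbp3, between 1.98 and 2.65 for Iigp1, Gbp7, Igtp, Irgm2 and Gbp5, 0.673 for Cxcl10 and 0 for Cxcl9. The ranges of all neighbours in this order overlapped. Cxcl10 was listed at 0 in 15 digits and Cxcl9 in 23. In bulk tissue, fewer cells of a type and less RNA per cell cannot be told apart.

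Cxcl9 was detected at more than 2 only in NR 7 d replicate 3, at 22.5 (70 counts). The other 4 digits of 7 d were at 0, 1.66, 0 and 0, and the highest digit of the other time points was at 0.636. Cxcl9 did not pass the filter on low counts in the digit tests reported here.

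Cxcl10 was between 0 and 0.611 in the 3 NR digits at 0 h. It was at 2.3, 1.75 and 0 at 3 h, at 9.24, 0 and 0.627 at 6 h, at 3.49, 0.203 and 4.19 at 12 h, and at 1.85, 0 and 1.118 at 24 h. At 3 d it was at 45.9 (67 counts) in replicate 1 and at 0 in the other 2 digits. At 7 d it ranged from 0 to 9.29 with a median of 1.67, and at 14 d and 21 d from 0 to 1.58. In INT digits it lay between 0 and 5.12. Within each time point, high and low digits lay side by side, and the groups overlapped.

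Gbp2 ranged from 2.18 to 6.62 in NR digits at 0 h and from 3.01 to 4.01 at 12 h. At 3 d it was at 35.8, 2.39 and 8.18, and at 7 d it ranged from 4.26 to 22.2 with a median of 13. Gbp3 was likewise highest in NR 3 d replicate 1, at 33.6 beside 2.81 and 1.0105, and ranged from 4.87 to 20.7 at 7 d with a median of 15.6. Gbp5 ranged from 0 to 9.69 and Gbp7 from 0.202 to 7.49 over all digits.

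Iigp1 ranged from 1.97 to 3.17 in NR digits at 0 h, was at 10.9, 4 and 2.53 at 6 h, and at 19.1, 2.9 and 2.21 at 3 d. Irgm1 ranged from 0 to 11.7 over all digits, highest in NR 6 h replicate 1, and Irgm2 from 0 to 9.86, highest in NR 7 d replicate 4. Igtp was at 9.12, 2.67 and 2.56 in NR digits at 0 h and at 0.862, 1.41 and 1.19 at 24 h. In INT digits Igtp was at 2.89, 2.47 and 3.58 at 0 h and at 0, 0.603 and 2.27 at 24 h, 0.822, 0.329 and 0.903 at 14 d and 0.439, 1.62 and 1.32 at 21 d.

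**Figure D4:**
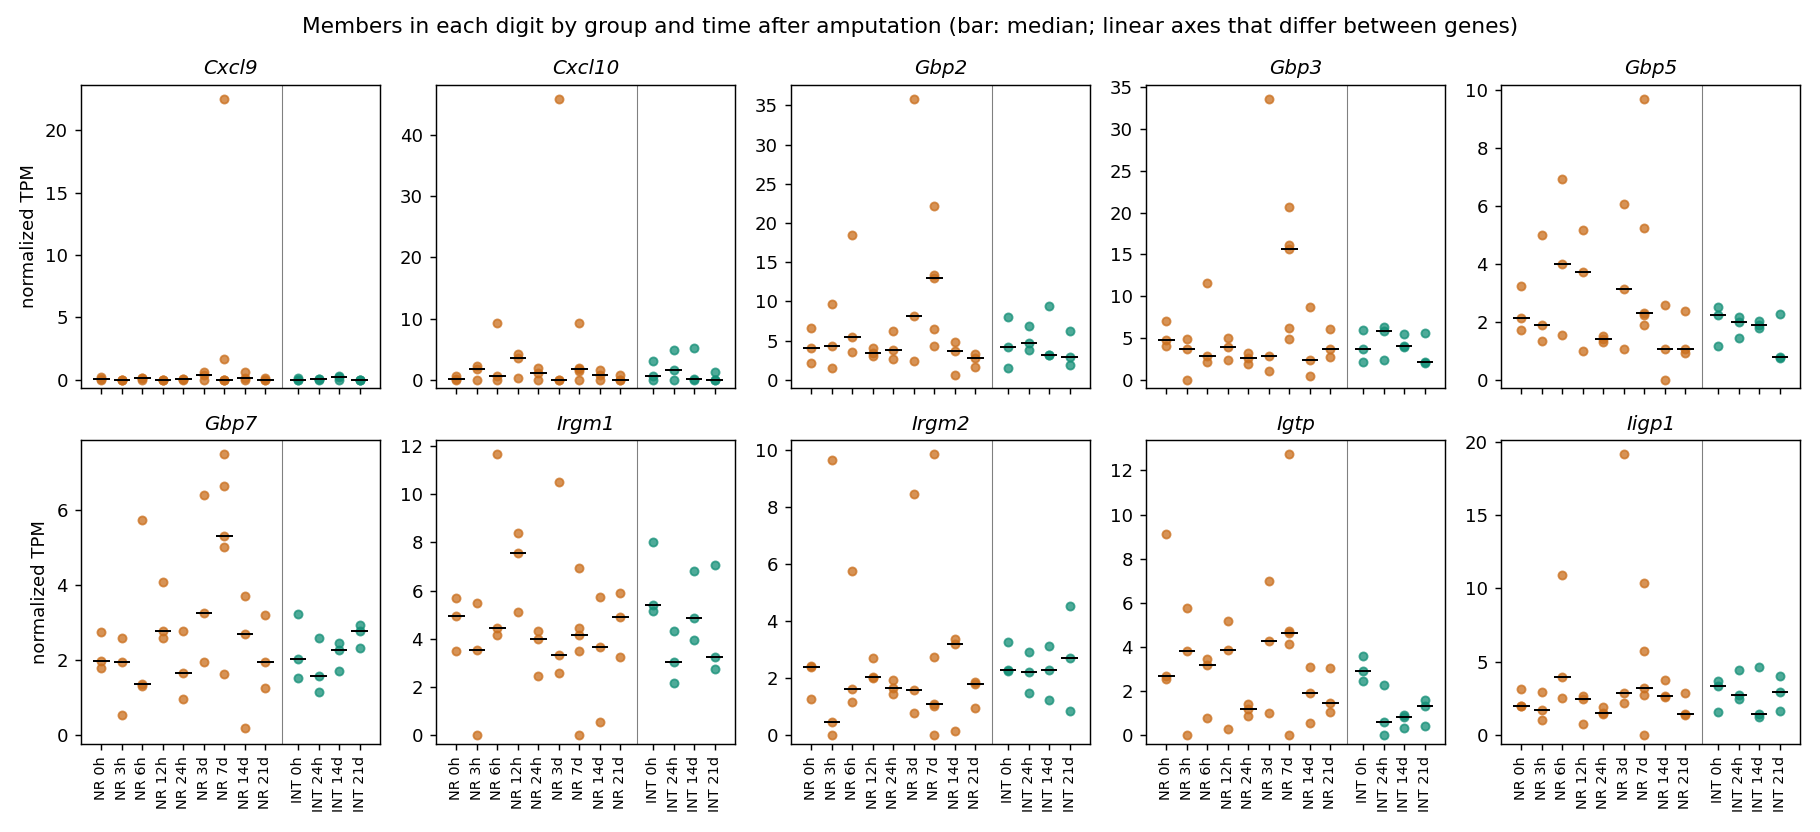
Normalized TPM (linear axes, 1 panel per member with its own scale) of each digit, NR in orange from 0 h to 21 d and INT in green from 0 h to 21 d after amputation; bars are medians. Single NR digits stand high, such as 45.9 for Cxcl10 at 3 d and 22.5 for Cxcl9 at 7 d, beside digits of the same time near 0.

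The F-test over the 9 NR time points tested 9 members and called 0 of them, against 7.62% of 14434 genes (2073 genes in place of 1100 without NR 7 d replicate 2, and 0 members). Gbp2 had the lowest p (0.0248, adjusted p = 0.151). It was the 1 member of the 9 with an unadjusted p below 0.05, beside 3221 of all 14434 genes. DESeq2 called it (adjusted p = 0.0135), with 4398 of 18918 genes called in all. Over the 4 INT time points 8 members were tested and 0 were called, against 6.21% of 14004 genes. Of the 8, 0 had an unadjusted p below 0.05, beside 3283 of all genes tested.

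The pairwise comparisons of NR time points with 0 h each tested 8 members and called 0, against 0% of all genes tested at 3 h, 4.85% at 6 h, 11.4% at 12 h, 10.7% at 24 h, 0.723% at 3 d, 0.0537% at 7 d, 0% at 14 d and 0.452% at 21 d. The counts over all genes depended on single digits: leaving out NR 0 h replicate 3 took them from 638 to 108 at 6 h, from 1491 to 804 at 12 h, from 1437 to 817 at 24 h and from 62 to 4 at 21 d. Leaving out NR 7 d replicate 2 took them from 7 to 78 at 7 d, with 0 members called in each. At 12 h and 24 h, the most genes were called. There the log2 differences of the 8 members tested lay between -0.48 (Igtp) and 0.70 (Gbp5) and between -1.94 (Igtp) and -0.22 (Irgm2). The highest upper bound of their 95% intervals was 2.014 (Gbp5) at 12 h and 0.79 at 24 h. Cxcl9 and Cxcl10 did not pass the filter and are not in these ranges. Cxcl10 was at 0 to 0.611 at 0 h, 0.203 to 4.19 at 12 h and 0 to 1.85 at 24 h, a change not tested pairwise. At 24 h all 8 tested members were below 0 in log2 difference. Unadjusted p by edgeR was below 0.05 for Igtp (-1.94, adjusted p = 0.0794) and Gbp3 (-0.998, adjusted p = 0.103). So it was for 4420 of all 13420 genes tested. DESeq2 called Igtp in this comparison (adjusted p = 0.0363), with 1872 of 17739 genes called in all. Igtp stood at 9.12 in NR 0 h replicate 1, beside 2.67 and 2.56 in the other 0 h digits.

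At 6 h, 3 d and 7 d, 7 of the 8 members had log2 differences above 0, with medians of 0.49, 0.77 and 0.81. At 6 h and 3 d this rested on 1 digit each: without NR 6 h replicate 1, 3 of the 8 were above 0 (median -0.33), and without NR 3 d replicate 1, 2 of the 8 (median -0.38). At 7 d, 6 of the 8 were above 0 without replicate 2 (median 0.98). The largest were Iigp1 at 6 h (1.35, 95% interval 0.04 to 2.66, adjusted p = 0.183), Gbp2 at 3 d (1.82, adjusted p = 0.501) and Gbp2 at 7 d (1.504, adjusted p = 0.999). All of these comparisons share the same 0 h digits. The intervals of single members were wide, with a median width of 2.62 on the log2 scale over the 118 digit values against 0.47 over the 30 macrophage values, so that a difference of several-fold in either direction was often not detectable at this depth and number of digits.

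In INT digits against 0 h, 0 of 8 members were called at 24 h, 14 d and 21 d, against 0.0152%, 1.68% and 1.39% of all genes. Without INT 0 h replicate 2 the genes called fell from 224 to 23 at 14 d and from 186 to 45 at 21 d, with 0 members called. Igtp had the largest differences, at -1.48 (adjusted p = 0.455), -2.15 (unadjusted p = 0.00691, adjusted p = 0.151) and -1.32 (adjusted p = 0.317). For the other 7 members the log2 differences lay between -0.81 and 0.28. For Igtp every later INT digit lay below the 3 INT digits at 0 h in normalized TPM, narrowly at 24 h (up to 2.27, against 2.47 or more). Its counts at these 2 times were low, at 0 to 27.1 and 19.2 to 42.7. Over all genes such separation was not counted. Irgm2, which overlaps Igtp, was at -0.17, -0.28 and 0.08.

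Between INT and NR digits 0 members were called at 0 h, 24 h, 14 d and 21 d, against 0%, 0%, 0% and 0.648% of all genes, with 8 members tested at 0 h and 21 d and 7 at 24 h and 14 d. Leaving out INT 24 h replicate 1 took the genes called at 24 h from 0 to 653, and leaving out INT 21 d replicate 1, 2 or 3 took those at 21 d from 89 to 0, with 0 members called. All INT digits at 21 d carry dates of the earlier period and all NR digits dates of the later one, so that at 21 d date and group cannot be told apart. In 1 fit of all 41 digits with the date period as a term, 0 members were called. The log2 differences (INT minus NR) lay between -0.77 (Igtp at 21 d) and 0.97 (Iigp1 at 24 h, adjusted p = 0.448). At 14 d, NR replicate 3 and INT replicate 1 carry the same animal mark, date and side in their labels, and they had the highest neutrophil sums of the time point (2712 and 2314). In all, 5 pairs of digits share these marks in this way, the other 4 between different time points, among them NR 0 h replicate 1 and NR 12 h replicate 3. Whether such a pair is 1 animal or a mark used again is not given, so these digits may not be independent. The difference between INT and NR in the change from 0 h was tested for 9 members at 3 times in 1 fit over 41 digits; the lowest unadjusted p of the 27 was 0.347.

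The digits in which the members stood high were few. NR 3 d replicate 1 was among the 3 highest digits for 9 of the 10 members, NR 6 h replicate 1 and NR 7 d replicate 3 for 5 each. How often these digits rank so over all genes was not counted, and NR 3 d replicate 1 held 3488364 counts, beside a median of 6835347 over the digits. The summed members were 173.5 in NR 3 d replicate 1, 83.9 in NR 6 h replicate 1 and 99.9 in NR 7 d replicate 3. They were at 17.4 and 25.4 in the other digits of 3 d and at 24.5 and 20.4 in those of 6 h. In NR 3 d replicate 1 the type I interferon-stimulated genes summed to 295.5 (20.5 and 21.3 in the other 2), the other interferon-inducible GTPases to 59.6 (10.4 and 21.1), the T and NK cell genes to 5.46 (3.35 and 6.36), and the macrophage genes to 594.4 (203.1 and 687.6). NR 7 d replicate 3 had T and NK cell genes at 10.6 within a range of 1.96 to 18.3 at 7 d. The part of these cell types in the members' levels was not tested.

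Summed markers of other cell types are given beside these values. The neutrophil genes summed to 23.3 to 36.8 in NR digits at 0 h and to 1202 to 1455 at 24 h. S100a9 and S100a8 were the most abundant, with means of 757.2 and 390.5 at 24 h, and made up most of the 24 h sums. At 12 h 7 of 7 tested were called higher, while Ly6g, listed at 0 in all 3 NR digits of 12 h, was not tested. The macrophage genes, with Lyz2, C1qb and C1qa the most abundant, summed to 160.3 to 306.8 at 0 h, 95.8 to 283.7 at 24 h and 203.1 to 687.6 at 3 d. The T and NK cell genes, with Cd3d, Cd4 and Cd3g the most abundant, summed to 8.9 to 12.6 at 0 h and to 1.28 to 1.97 at 24 h in NR digits. The endothelial genes (Egfl7, Pecam1 and Emcn the most abundant) summed to 106.3 to 200.8 and 110.1 to 148.3 at these times, and the keratinocyte genes (Krt10, Krt1 and Krt14) to 26882 to 55507 and 28063 to 49868. Their part in the members' levels was not tested.

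A ratio within a library does not depend on the scale of its table. For each library the summed members were divided by the summed macrophage genes (Adgre1, Cd68, Csf1r, Lyz2, Mrc1, C1qa, C1qb, C1qc, Fcgr1 and Mertk); this ratio was chosen after the values were seen. Per 100 of macrophage genes the members were at 1.26 to 1.65 in M0, 134.7 to 152.7 in M1 and 11.5 to 16 in M2. In the digits the median was 10.6, with a range from 0.182 (NR 14 d replicate 2) to 45.5 (NR 6 h replicate 1). NR digits at 6 h were at 45.5, 26.4 and 23.4, above the 11.9 to 16.4 of the NR digits at 0 h. In replicates 2 and 3 of 6 h the summed members (24.5 and 20.4) lay within the 0 h range (19.95 to 38.7), whereas the summed macrophage genes (92.8 and 87.3) lay below it (160.3 to 306.8). At 14 d and 21 d NR digits were at 0.182 to 9.43 and INT digits at 5.72 to 9.79. Which cells of the wound bed the RNA of the members came from was not tested, nor was this tested for the macrophage genes. Several macrophage genes themselves differed between M0 and M1 (Mrc1 by -4.11 and Fcgr1 by 3.41 in log2). Lyz2, the most abundant gene of this list, averaged 15500 for M0 libraries, against 5479 for M1 and 5228 for M2. Part of the higher ratio of both stimulated states thus came from a lower divisor. For these reasons the ratio is a description.

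**Figure D5:**
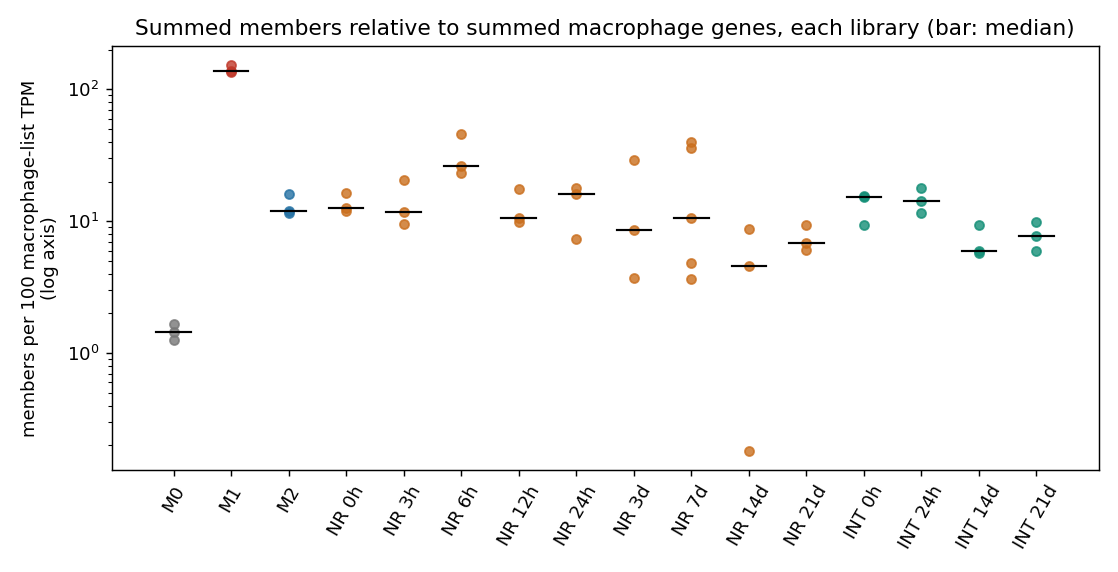
Summed normalized TPM of the 10 members per 100 of the summed macrophage genes in each library (log axis), for M0, M1, M2 and each digit group; bars are medians. M1 lies at 134.7 to 152.7 and M0 at 1.26 to 1.65, and the digits, apart from the 1 at 0.182, between 3.66 and 45.5.

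Upstream genes were also followed in the digits. Ifng was listed at 0 in 40 of 41 digits and had 1 count in the other, and Cxcr3 was listed at 0 in 34 digits and had at most 4 counts. In NR digits Socs3 was higher than at 0 h at 6 h (2.58, adjusted p = 0.0355), 12 h (2.52, adjusted p = 0.0158) and 24 h (2.41, adjusted p = 0.017), with levels of 7.1 to 38.2 at 0 h and 91.2 to 105.4 at 24 h. Ifngr1 (1.09) and Jak2 (1.09) were called at 12 h and Socs1 (2.22) at 24 h. Socs3 and Irf9 were called in the F-test over the NR time points (adjusted p = 0.0208 and 0.0374), whereas Irf1 (adjusted p = 0.746) was not, nor were Ifngr1, Ifngr2, Jak1, Jak2, Irf8, Socs1 and Ptpn2. Dpp4 had an adjusted p of 0.11.

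Of the other interferon-inducible GTPases, 4 were tested at 6 h and at 24 h. Gbp6 was called higher at 6 h (2.06, adjusted p = 0.0444) and Gbp4 lower at 24 h (-2.16, adjusted p = 0.0193). At these times 4.85% and 10.7% of all genes tested were called. Of the 10 type I interferon-stimulated genes tested at 12 h, 3 were called higher: Isg15 (3.11), Oas2 (3.68) and Oasl2 (1.98). At 12 h 11.4% of all genes tested were called in either direction. These names, other than Gbp4's and Oasl2's, were chosen after their values were seen. In the F-test over the NR time points the most abundant genes of both lists were not called. Adjusted p was 0.935, 0.8 and 0.974 for Gbp9, Gbp4 and Gvin1, and 0.413, 0.36 and 0.409 for Irf7, Ifit3 and Oasl2. Gbp6, Isg15 and Oas2 were not called there either.

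Over the 41 digits, the genes most like the members were Dtx3l, Slfn5, Ifit3b, Ccl9 and Nin, with Spearman's rho of 0.74, 0.702, 0.655, 0.64 and 0.633 between their level and the mean z-score of the members, among 13682 genes with a mean level of at least 1. The digits share time points, depth and cell makeup, so these values are a description. In the macrophages, Dtx3l, Slfn5 and Ifit3b had medians of 61.8, 149 and 26.6 in M0, 318.5, 997 and 488.7 in M1 and 107, 407 and 62.7 in M2, in the same order of states as the members. Ccl9 was highest in M2 (739, beside 151 in M0 and 563.5 in M1), and Nin was lowest in M1 (7.22, beside 20.4 and 19.7).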

How the data were processed

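RNA was measured in 9 macrophage libraries and 41 digits by poly(A)+ ligation-mediated RNA-seq. Per the labels and the study's methods, the authors aligned reads with Bowtie to mm10 (CASAVA and RSEM 1.2.3 are named) and deposited RSEM expected counts (estimated counts) and, as a second unit, normalized TPM, a signal scaled between samples by the authors with median-by-ratio factors within each table. The names of 26 genes had turned into dates in some of them; they were restored from the same row of a deposited table that kept them. Groups came from the sample titles, and no column lacked a sample. The members, gene lists and tests were chosen with earlier results of these data known.

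Expected counts were rounded to whole numbers and tested with edgeR 4.0.16 (filterByExpr, TMM, quasi-likelihood test, Benjamini-Hochberg adjustment over all genes tested) on the libraries of the 2 groups compared; a gene was called at an adjusted p below 0.05 when its mean normalized counts, with 1 added, also differed more than 2-fold. EBSeq, the study's tool, was not used here. The values of 1 listed gene are not reported here. Change over time was tested by an F-test without a fold threshold. Confidence intervals are 95% intervals from the fit. The scripts were tested on simulated data. Named genes were all members, the interferon-gamma signalling and CXCR3 axis lists, the 3 most abundant genes of each other list, listed genes at 0 in a whole macrophage state, and the 5 genes most like the members over the digits, ranked on log2(normalized TPM + 1). Replicate pairs of a group differed by more than sampling noise in all 55 pairs. Totals of 1468749 to 27904773 counts give floors of 3 counts, which cover counting error only. Alternatives were RLE scaling, DESeq2 1.42.0, no filter, no fold threshold, wider fits, the date period as a term, NR digits labelled above 67% and leaving out each library.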

Additional observations from a re-analysis of the deposited data

Results flagged for a closer look

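Of the groups with 4 to 10 samples, only the 5 NR digits at 7 d qualified for a check of single digits that stand far from the rest. The gap to the nearest digit was set against the whole range, with a 95% critical value of 0.71. Chance flags about 1 in 20 such groups if values are normally distributed, which was not tested for these levels. The check was run on the members only, so the share of all genes that would pass is not known. Of the 10 members, 3 passed it, and 1 of these, Cxcl9, was listed at 0 in 3 of the 5 digits. For Cxcl9 the share was 0.926 (replicate 3 at 22.5, the next at 1.66). For Cxcl10 it was 0.797 in the same digit (9.29, the next at 1.88), and for Irgm2 it was 0.722 in replicate 4 (9.86, the next at 2.74).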

How the results depend on the processing

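Over the 20 comparisons the count of members called stayed within 1.5 times of the reported value in 266 recalculations and moved further in 2. Both came from DESeq2, which called 1 member where edgeR called 0: Igtp in NR 24 h against 0 h (adjusted p = 0.0363) and Gbp2 over the NR time points (adjusted p = 0.0135). In NR 24 h against 0 h DESeq2 called 1872 of 17739 genes in all, against 1437 genes by edgeR. Over the NR time points DESeq2 called 4398 of 18918 genes in all, against 1100 by edgeR. The cause was not tested. No macrophage member difference changed sign under any alternative run. With no fold threshold, 10 members passed in M2 against M0. Leaving out each library in turn gave 10 to 10 members in M1 against M0 and in M1 against M2, 8 to 9 in M2 against M0, and 0 to 0 in every digit comparison and in both tests over time. With the replicate block, 10, 8 and 10 members were called in M1 against M0, M2 against M0 and M1 against M2, as without it. Same-numbered macrophage libraries of different states did not deviate together (correlations from -0.113 to 0.117 over 9 pairs). Pairs with different numbers were at -0.115 to 0.137 (18 pairs). These values cannot show whether same-numbered libraries share an animal or a culture. Without NR 14 d replicate 2, 271 genes were called in NR 14 d against 0 h in place of 0, and 0 members. Counts over all genes also moved by more than 1.5 times with other single digits, from 96 to 43 at NR 3 d without NR 0 h replicate 2 or NR 3 d replicate 3 and to 203 without NR 3 d replicate 2, from 0 to 84 at NR 3 h without NR 0 h replicate 1, from 2 to 37 at INT 24 h without INT 24 h replicate 2 and from 869 to between 444 and 1388 over the INT time points. The median over all genes moved by more than 0.1 in M1 against M0 with all 9 libraries in 1 fit (by -0.102) and in NR 3 h against 0 h with no filter (by -0.107). Of the genes most like the members, Ccl9 and Nin left the first 5 with a pseudocount of 0.1 (rho 0.543 and 0.548), and Nin did without NR 14 d replicate 2 (0.604), a choice made after seeing the data. Low counts limited the digit tests: as reported, Cxcl9 passed the filter in none of them, and Cxcl10 only in the fits over all NR or all 41 digits.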

Other observations

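Genes of antigen processing moved with the members in the macrophages. Of 10 genes listed for class II control and the immunoproteasome, 9 were called higher and 1 lower in M1 than in M0, and 8 were called higher in M2. Among the most abundant, Tapbp, which assists peptide loading, was higher by 2.84 in M1 and 1.83 in M2 in log2, and the proteasome activator genes Psme2 and Psme1 by 2.66 and 2.28 in M1 and by 2.42 and 1.57 in M2. The 1 lower gene in M1, named after its value was seen, was Ciita, the regulator of class II genes, at -3.01, while its class I counterpart Nlrc5 was at 3.52. In NR digits Nlrc5 was called higher at 6 h (1.27, adjusted p = 0.0402) and was called in the F-test over the time points (adjusted p = 0.0244). Nlrc5 is not among the 3 most abundant genes of the list. Those 3, Psme2, Psme1 and Tapbp, were not called in that F-test (adjusted p = 0.321, 0.642 and 0.442). Nor were Psmb8, Psmb9, Psmb10, Tap1, Tap2 and Ciita.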
